A study of Mus musculus with 10 samples.

Results

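The B7-CD28 family genes Cd274, Pdcd1lg2, Cd80, Cd86, Icosl and Cd276 (ligands) and Pdcd1, Cd28, Ctla4 and Icos (receptors) were followed in tumors of mice injected with an oligonucleotide agonist of TLR9. These 10 genes were a named set, and all 10 were measured among 19938 genes that had a probe with a single gene symbol. Each gene was read from 1 probe, the one with the highest mean over all arrays, and only Cd80 had a second probe. No gene was left out for a low level. The arrays held total RNA of whole tumors that MC38 cells, a mouse colon carcinoma line, had formed under the skin of C57BL/6 mice. The CpG1826 group had 5 tumors of about 40 mm2 that were injected with CpG1826, 50 µg dissolved in 50 µL PBS, and removed after 6 h. The PBS group had 5 tumors, labelled with the same size of about 40 mm2. The labels state no schedule of their own for these tumors, so the same one was assumed. Both groups share the line, the host strain, the labelled tumor size and, on that assumption, an injection 6 h before removal. No untouched tumor was included. Each array was taken as 1 mouse and is named by its mouse number, 26, 29, 482, 592 and 661 for PBS and 50, 58, 183, 189 and 595 for CpG1826. Values are on a log2 scale, so a difference of 1 is a doubling, and the level of one probe is not comparable with that of another.

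T cells need a signal from CD28 beside that of their antigen receptor, and CD28 receives it from CD80 or CD86 on antigen-presenting cells. CTLA-4 binds the same ligands more tightly and restrains the response, ICOS is a relative that appears on activated T cells and binds ICOS ligand (Icosl), and PD-1 (Pdcd1) is an inhibitory receptor for PD-L1 (Cd274) and PD-L2 (Pdcd1lg2). PD-L1 is made by tumor cells and myeloid cells and is inducible by interferons and other inflammatory signals. CD276, or B7-H3, is a relative whose receptor is not settled. In whole-tumor RNA, fewer cells of a type and less RNA per cell cannot be told apart.

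The ligands changed in both directions and the receptors did not pass the test. Cd274 and Cd80 rose, Icosl fell, and the other 3 of 6 ligands and all 4 receptors did not pass a limma test at an adjusted p under 0.05 over all genes. Of the 10 genes 2 were called higher, against 3.56% of all genes tested, and 1 lower, against 1.10%. The median log2 fold change was 0.52 over the 6 ligands, 0.15 over the 4 receptors and -0.02 over all 19938 genes. At an unadjusted p under 0.05, 5 of 6 ligands and 0 of 4 receptors passed the limma test, against 15.6% of all genes tested.

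**Figure D1:**
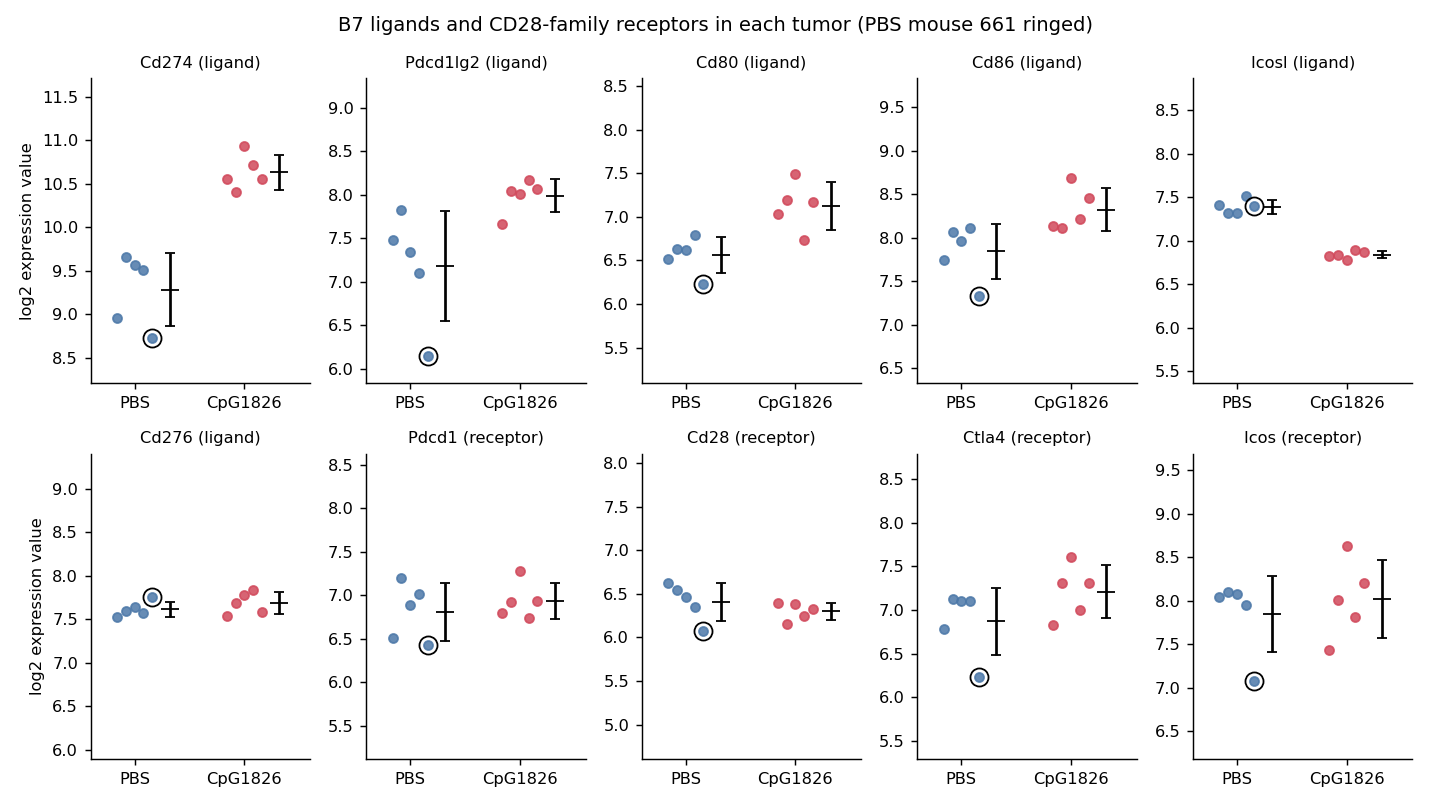
Log2 expression value of each gene (y axis, a span of equal size in every panel) in the 5 PBS and the 5 CpG1826 tumors (points), with the group mean and SD as a bar beside them and PBS mouse 661 ringed. All 5 CpG1826 values lie above all 5 PBS values for Cd274 and below them for Icosl, while the receptor values overlap.

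The sequences just before the start sites of the 3 called genes are shown because these genes moved in opposite directions. They are the 250 bases before 1 annotated start of each gene in a RefSeq table for GRCm38.p6, at chr19:29367188-29367437 for Cd274, chr16:38458683-38458932 for Cd80 and chr10:78069118-78069367 for Icosl, all on the plus strand. For Icosl this is the outermost annotated start, and for Cd274 and Cd80 it is not. Capitals mark matches to 1 of 4 short motifs, searched on both strands: GAAANNGAAA (core of the interferon-stimulated response element), TTCNNNGAA (interferon-γ-activated site), GGGNNNNNCC (a loose form of the NF-κB site) and TGANTCA (AP-1).
Cd274: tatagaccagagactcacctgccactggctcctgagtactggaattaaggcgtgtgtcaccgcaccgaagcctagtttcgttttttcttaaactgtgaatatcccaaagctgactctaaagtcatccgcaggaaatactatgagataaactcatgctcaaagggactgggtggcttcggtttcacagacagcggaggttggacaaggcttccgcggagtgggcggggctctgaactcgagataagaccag
Cd80: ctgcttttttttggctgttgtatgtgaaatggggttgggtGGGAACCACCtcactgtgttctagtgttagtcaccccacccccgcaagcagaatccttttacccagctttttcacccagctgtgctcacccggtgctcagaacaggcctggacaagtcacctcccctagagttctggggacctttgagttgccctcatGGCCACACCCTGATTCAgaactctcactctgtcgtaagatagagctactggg
Icosl: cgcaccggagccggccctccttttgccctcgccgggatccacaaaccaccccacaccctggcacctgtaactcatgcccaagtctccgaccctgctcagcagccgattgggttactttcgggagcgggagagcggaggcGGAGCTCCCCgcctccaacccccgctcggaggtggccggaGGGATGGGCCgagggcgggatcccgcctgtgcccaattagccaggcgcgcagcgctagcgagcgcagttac
The Cd274 window held none of the 4 motifs, Cd80 held 2 matches to the NF-κB pattern, at 210 to 201 and at 52 to 43 bases before the start, with 1 match to AP-1 directly after the latter at 42 to 36, and Icosl held 2 matches to the NF-κB pattern. In Pdcd1lg2, which lies next to Cd274, the window held GGGGAATCCC, a match on both strands. The table held 7 of the 10 genes, and 4 of these had the NF-κB pattern, against 45.8% of the 32851 windows in the table. The AP-1 motif was in 1 of the 7 (6.75% of all windows), and the response element core and the activated site in 0 of the 7 (2.98% and 7.02% of all windows). A match is a run of letters in this window and says nothing about binding.

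Cd274 showed the largest change of the 10 genes. Its values were 8.96, 9.66, 9.57, 9.51 and 8.73 in PBS mice 26, 29, 482, 592 and 661, and 10.55, 10.41, 10.93, 10.72 and 10.55 in CpG1826 mice 50, 58, 183, 189 and 595. Every CpG1826 tumor lay above every PBS tumor, and PBS mice 26 and 661 were the low ones of their group. Cd274 rose 2.54-fold, with a 95% confidence interval of 1.97 to 3.27 (limma, Benjamini-Hochberg adjusted p = 0.000303), between group means of 9.29 ± 0.42 and 10.63 ± 0.20 (SD, n = 5 each). Among the 710 genes called higher, it ranked number 66 by size of change. The rise was called in 10 of 10 fits that left out 1 mouse, at a log2 fold change between 1.21 and 1.44. A limma treat test against a minimum of 1.5-fold did not call it (adjusted p = 0.0682), and no other member passed that test.

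Pdcd1lg2, the gene of PD-L2, was higher in most CpG1826 tumors without passing the test. It read 7.48, 7.82, 7.34, 7.10 and 6.15 in PBS mice 26, 29, 482, 592 and 661, and 7.66, 8.04, 8.01, 8.17 and 8.07 in CpG1826 mice 50, 58, 183, 189 and 595. The lowest CpG1826 tumor, mouse 50, lay below PBS mouse 29, and the other 4 lay above the whole PBS group. The difference of 0.81 ± 0.24 (SE; 95% confidence interval 0.30 to 1.32, limma adjusted p = 0.0774) came with a PBS SD of 0.63, the largest among these genes, where mouse 661 lay 1.02 below its group mean. Leaving mouse 661 out made the difference smaller and the test pass (0.56, limma adjusted p = 0.0461). Without PBS mouse 29 the test also passed, at a larger difference (0.97, limma adjusted p = 0.0298). Over the 10 fits that left out 1 mouse, the limma adjusted p ran from 0.0298 to 0.143. Pdcd1lg2 also passed when genes below the median level were left out, a filter that drops Cd80, Pdcd1 and Cd28 (0.81, limma adjusted p = 0.0455).

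Of the CD28 and CTLA-4 ligands, Cd80 passed the test and Cd86 did not. Cd80 read 6.52, 6.63, 6.62, 6.79 and 6.23 in PBS mice 26, 29, 482, 592 and 661, and 7.03, 7.19, 7.49, 6.74 and 7.17 in CpG1826 mice 50, 58, 183, 189 and 595. Mouse 189 of the CpG1826 group lay just below PBS mouse 592, and the other 4 exceeded all PBS tumors. Cd80 rose 1.48-fold (1.22 to 1.80), from 6.56 ± 0.21 to 7.12 ± 0.27 (SD, n = 5 per group; limma adjusted p = 0.0236). Removing any of PBS mice 26 and 661 and CpG1826 mice 58, 183 and 595 ended this call; across all 10 removals the limma adjusted p ranged between 0.00571 and 0.0623 and the log2 fold change between 0.47 and 0.66. The second, dimmer Cd80 probe differed by 0.31, from 6.09 ± 0.16 to 6.41 ± 0.14 (SD, n = 5 per group), and the mean of both probes passed as well (0.44, limma adjusted p = 0.0135).

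Cd86 read 7.75, 8.07, 7.96, 8.11 and 7.33 in PBS mice 26, 29, 482, 592 and 661, and 8.13, 8.11, 8.69, 8.22 and 8.46 in CpG1826 mice 50, 58, 183, 189 and 595. The groups were narrowly apart, since PBS mouse 592 and CpG1826 mouse 58 both round to 8.11. The difference was 0.48 ± 0.15 (SE; 0.15 to 0.80, limma adjusted p = 0.107), and it passed in 0 of 10 fits that left out 1 mouse. Groups were free of overlap for 3 of the 10 genes, against 6.78% of all genes tested: Cd274 and Cd86 were higher (4.35% of all genes) and Icosl lower (2.42%).

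Icosl was the one member that fell, and it had the smallest spread. It read 7.41, 7.32, 7.32, 7.51 and 7.40 in PBS mice 26, 29, 482, 592 and 661, and 6.83, 6.84, 6.78, 6.89 and 6.87 in CpG1826 mice 50, 58, 183, 189 and 595. All 5 CpG1826 tumors were lower than all 5 PBS tumors, and the SD was 0.08 in PBS and 0.04 in CpG1826 tumors, below that of every other member in either group. Icosl fell by 0.55 on the log2 scale (1.46-fold lower, 95% confidence interval 1.34 to 1.6, limma adjusted p = 0.000119), rank 4 by p and rank 43 by size among the 220 genes called lower. Leaving out any 1 mouse gave -0.57 to -0.52, with 10 of 10 fits past the threshold, and PBS mouse 661, low for most of the family, sat at the PBS mean of this gene.

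Cd276 showed no difference that passed the test. It read 7.52, 7.59, 7.64, 7.57 and 7.75 in PBS mice 26, 29, 482, 592 and 661, and 7.54, 7.68, 7.78, 7.84 and 7.58 in CpG1826 mice 50, 58, 183, 189 and 595. The groups overlapped, and PBS mouse 661 was the highest of its group. The difference was 0.07 ± 0.08 (SE), with an interval of -0.09 to 0.23, up to a 1.18-fold rise (limma adjusted p = 0.735).

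**Figure D2:**
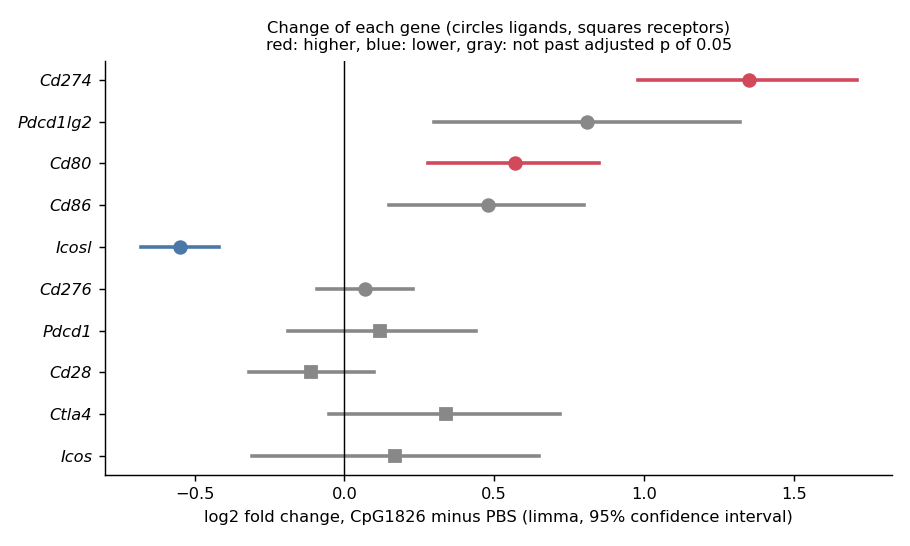
Log2 fold change of each gene, CpG1826 minus PBS (x axis), as the limma estimate with its 95% confidence interval (n = 5 per group). Cd274 (1.35) and Cd80 (0.57) are called higher, Icosl (-0.55) is called lower, and the intervals of all 4 receptors include 0.

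Among the receptors 0 of 4 passed. Pdcd1, the PD-1 gene, read 6.51, 7.20, 6.89, 7.01 and 6.43 in PBS mice 26, 29, 482, 592 and 661, and 6.80, 6.92, 7.28, 6.74 and 6.93 in CpG1826 mice 50, 58, 183, 189 and 595. The groups overlapped widely, and the difference was 0.12 ± 0.15 (SE; -0.19 to 0.44, limma adjusted p = 0.757). Cd28 read 6.63, 6.55, 6.46, 6.35 and 6.07 in PBS mice 26, 29, 482, 592 and 661, and 6.39, 6.16, 6.38, 6.25 and 6.33 in CpG1826 mice 50, 58, 183, 189 and 595, a difference of -0.11 ± 0.10 (SE; -0.32 to 0.10, limma adjusted p = 0.659). All 5 CpG1826 values of Cd28 lay inside the PBS range.

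Ctla4 read 6.78, 7.13, 7.10, 7.10 and 6.23 in PBS mice 26, 29, 482, 592 and 661, and 6.83, 7.31, 7.61, 7.0 and 7.31 in CpG1826 mice 50, 58, 183, 189 and 595. It was above the whole PBS range in 3 of 5 CpG1826 tumors, and its difference of 0.34 ± 0.18 (SE; -0.05 to 0.72, limma adjusted p = 0.400) was the largest among the receptors. Icos read 8.05, 8.10, 8.08, 7.95 and 7.08 in PBS mice 26, 29, 482, 592 and 661, and 7.43, 8.01, 8.63, 7.82 and 8.21 in CpG1826 mice 50, 58, 183, 189 and 595. Its difference was 0.17 ± 0.22 (SE; -0.31 to 0.65, limma adjusted p = 0.790) and turned to -0.02 without PBS mouse 661 (limma adjusted p = 0.980). The upper limits of these intervals correspond to 1.35-fold for Pdcd1, 1.07-fold for Cd28, 1.65-fold for Ctla4 and 1.57-fold for Icos, rises that these values do not exclude.

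To compare ligand with receptor, the log2 value of the receptor was subtracted from that of the ligand within each tumor, and the group means of this difference were compared by an exact two-sided permutation test, adjusted over 7 pairs. Only the change of the difference is read, since its level depends on probe brightness. The change can depend on brightness too, because a dim probe can understate a fold change. By mean level, the Cd274 probe stood at percentile 92.5 of all genes, Pdcd1 at 50.0, Cd80 at 49.6 and Cd28 at 43.0. The part of brightness in these differences was not tested. Cd274 minus Pdcd1 was 2.45, 2.47, 2.68, 2.50 and 2.29 in PBS mice 26, 29, 482, 592 and 661, and 3.75, 3.50, 3.65, 3.98 and 3.62 in CpG1826 mice 50, 58, 183, 189 and 595. The groups were clear of each other, and the difference was greater in CpG1826 tumors by 1.22 ± 0.10 (SE), a 2.33-fold change of the ratio (exact permutation p = 0.00794, the lower bound for groups of 5; adjusted p = 0.0278). Within-group SDs of 0.14 and 0.18 were below those of Cd274 alone, 0.42 and 0.20.

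Cd80 minus Cd28 increased by 0.68 ± 0.15 (SE; all 5 CpG1826 tumors above the PBS range, exact permutation adjusted p = 0.0278) and Cd86 minus Cd28 by 0.59 ± 0.15 (above all PBS tumors in 4 of 5, exact permutation adjusted p = 0.0370). Against Ctla4 the same ligands missed the threshold: Cd80 minus Ctla4 changed by 0.23 ± 0.12 (exact permutation adjusted p = 0.102) and Cd86 minus Ctla4 by 0.14 ± 0.09 (exact permutation adjusted p = 0.190). Pdcd1lg2 minus Pdcd1 (0.69 ± 0.25) and Icosl minus Icos (-0.72 ± 0.29) both missed the threshold (exact permutation adjusted p = 0.0556 each), and both passed after a further quantile normalization (0.67 and -0.70, exact permutation adjusted p = 0.0444 each).

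These calls shift with single mice. Without PBS mouse 661, Cd80 minus Ctla4 passed (0.30, exact permutation adjusted p = 0.0370), and without CpG1826 mouse 58 so did Cd86 minus Ctla4 (0.22, exact permutation adjusted p = 0.0417). Pdcd1lg2 minus Pdcd1 passed without PBS mouse 26 (0.84, exact permutation adjusted p = 0.0278) or CpG1826 mouse 50 (0.74, exact permutation adjusted p = 0.0444), and Icosl minus Icos without CpG1826 mouse 50 (-0.86, exact permutation adjusted p = 0.0185). Cd274 minus Pdcd1 and Cd80 minus Cd28 missed it at an exact permutation adjusted p = 0.0556 when PBS mouse 29, PBS mouse 482 or CpG1826 mouse 183 was removed. Cd86 minus Cd28 missed it at the same value without any of those mice or without CpG1826 mouse 189 or 595. The changes of these 3 differences stayed at 1.15 to 1.27, 0.61 to 0.76 and 0.51 to 0.67. For Cd274 minus Pdcd1 and Cd80 minus Cd28 the groups had no overlap with all tumors, so they had none without 1 mouse either. An exact permutation p over so few arrays has a lower bound, and its adjusted value also depends on the other pairs. For these differences a miss therefore does not show that the change rests on the removed mouse.

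Between ligands, 3 pairs were compared in the same way. On these probes Cd274 changed more than Cd80, which PD-L1 can bind on the same cell. Cd274 minus Cd80 increased by 0.78 ± 0.17 (SE, no overlap, exact permutation adjusted p = 0.0238). The Cd80 probe was the dimmer one, and the part of probe brightness in this was not tested. Cd274 minus Pdcd1lg2, the pair of PD-1 ligands, increased by 0.53 ± 0.23 (exact permutation adjusted p = 0.0833), and by 0.65 without PBS mouse 661 (exact permutation adjusted p = 0.0238). Cd80 minus Cd86 changed by 0.09 ± 0.11 (exact permutation adjusted p = 0.444) and by -0.04 with the mean of both Cd80 probes (exact permutation adjusted p = 0.722).

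**Figure D3:**
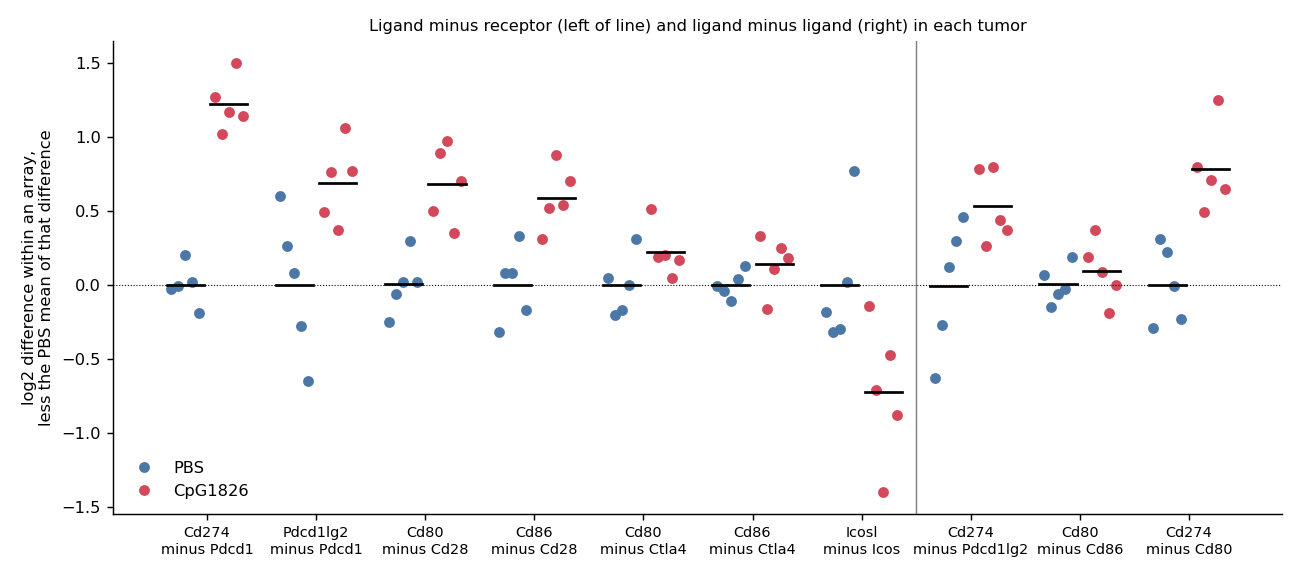
Log2 difference between the genes of a pair within each tumor, less its PBS mean (y axis), for 7 ligand and receptor pairs left of the line and 3 ligand pairs right of it, with a point per tumor and a bar at each group mean. All 5 CpG1826 points exceed all PBS points for Cd274 minus Pdcd1 (mean 1.22), Cd80 minus Cd28 (0.68) and Cd274 minus Cd80 (0.78).

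Mice of one group differed in a way that most of the family shared. PBS mouse 661 had the lowest PBS value for 8 of the 10 genes and the highest for 1, Cd276. It lay 1.02 below its group mean for Pdcd1lg2, 0.77 for Icos, 0.64 for Ctla4, 0.56 for Cd274 and 0.51 for Cd86. CpG1826 mouse 183 had the highest CpG1826 value for 6 of the 10 genes, with Icos 0.61 and Ctla4 0.40 above the mean. Icosl departed from its group mean by at most 0.12 in any tumor.

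Marker lists moved with these mice. The mean log2 level of 12 measured T cell markers, here called a score, was 6.78 in PBS mouse 661 and 7.25 to 7.33 in the other PBS mice, and in CpG1826 tumors it was lowest in mouse 50 (6.64) and highest in mouse 183 (7.22). The macrophage and monocyte score was 10.08 in PBS mouse 661 and 10.37 to 10.49 in the other PBS mice. The part of these cell types in the results was not tested. Leaving out PBS mouse 661 and CpG1826 mouse 50 together, which was chosen after the data were seen, left 2 genes called higher, 1 lower and 0 receptors. Those higher were then Cd274 (1.23, limma adjusted p = 0.00149) and Pdcd1lg2 (0.64, limma adjusted p = 0.0235), while Cd80 (0.51, limma adjusted p = 0.0851) lost its call.

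**Figure D4:**
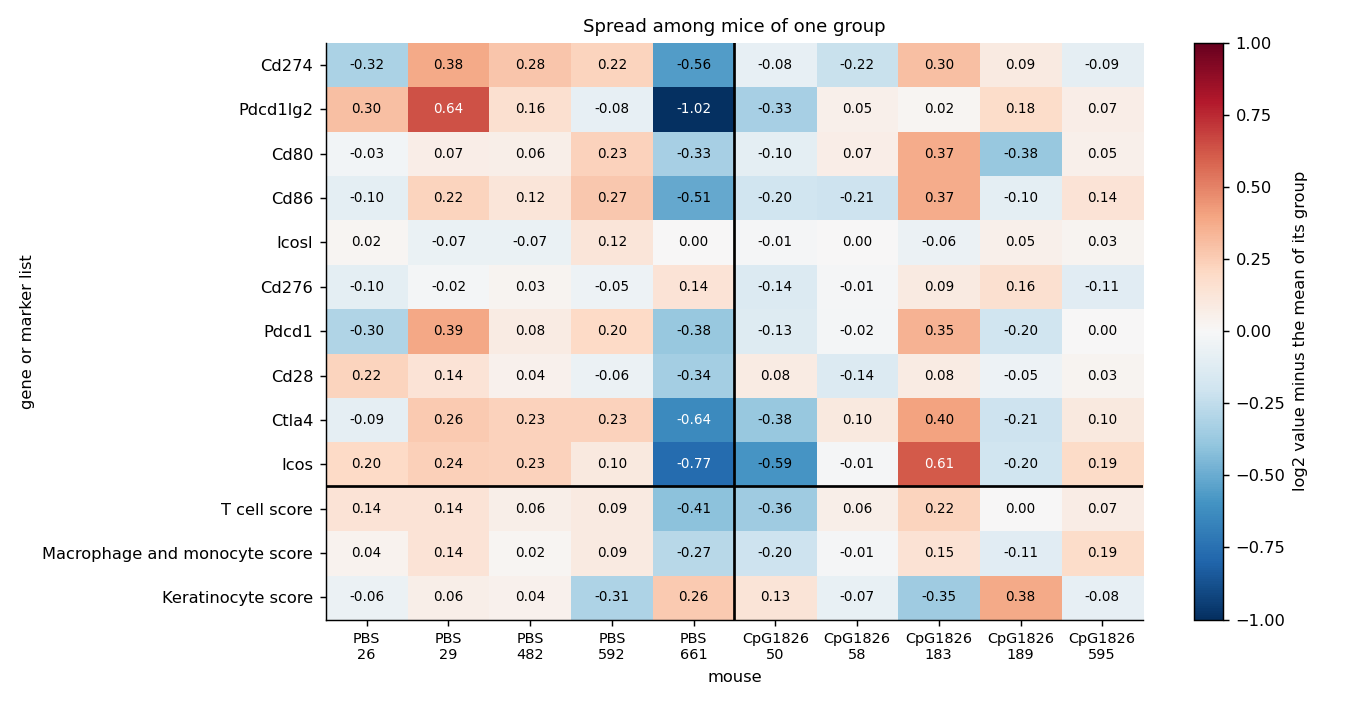
Log2 value of each gene (upper rows) and each marker score (lower rows) minus the mean of its group, for the 5 PBS and 5 CpG1826 mice (columns), by color and number. PBS mouse 661 is below its group for 8 genes and for the T cell and the macrophage and monocyte scores, while Icosl stays within 0.12 of its group means.

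Between the groups, T cell markers gave no call: of 12 measured, 0 rose and 0 fell (limma; 0 higher and 2 lower at an unadjusted p under 0.05), with a median log2 fold change of -0.20. The T cell score was 7.19 ± 0.24 in PBS (6.78 to 7.33) and 7.0 ± 0.22 in CpG1826 tumors (6.64 to 7.22; SD, n = 5 per group). Cd3g and Cd8a, T cell surface genes, differed by -0.51 ± 0.25 and -0.29 ± 0.18 (SE), neither past the threshold. Of 5 regulatory T cell markers, Il2ra, the high-affinity IL-2 receptor chain that other activated lymphocytes also carry, rose 1.81-fold (1.41 to 2.33), and the defining factor Foxp3 differed by -0.06 ± 0.09 (SE).

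Markers of the cells that carry B7 ligands changed in few members. Of 12 dendritic cell markers, Ccr7, the lymph node homing receptor, rose by 0.75 on the log2 scale and 0 fell. Their median was -0.06. At an unadjusted p under 0.05 (limma), 3 were higher, Ccr7 among them, and 2 lower, Clec9a (-0.32) and Clec10a (-0.40). Of 12 macrophage and monocyte markers, Fcgr1, a high-affinity antibody receptor, rose by 0.40, Csf1r, the M-CSF receptor, fell by 0.46 (limma adjusted p = 0.0119) and Ccr2, a monocyte chemokine receptor, fell by 0.61 (limma adjusted p = 0.0495). The Ccr2 call was kept only without CpG1826 mouse 595 and the Fcgr1 call only without PBS mouse 592 or CpG1826 mouse 50 or 189 (limma adjusted p of 0.0158 to 0.127 and 0.0434 to 0.0982 when 1 mouse is left out). Among B cell, plasmacytoid dendritic cell and NK cell markers (5, 4 and 6 measured), 0 passed the limma test and 1, the NK cell gene Prf1, was higher at an unadjusted p under 0.05. Their medians were -0.10, -0.09 and -0.14, and examples were the B cell genes Cd79b (-0.23) and Blk (-0.10), the plasmacytoid dendritic cell markers Bst2 (0.17) and Tcf4 (-0.13), and the NK cell genes Prf1 (0.72, limma adjusted p = 0.0578) and Klrd1 (-0.35).

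Markers of keratinocytes and neutrophils rose, where 3.56% of all genes were called higher. Of 14 keratinocyte markers 10 rose, led by Krt1 (3.06 on the log2 scale) and Krt5 (2.95), and the score was 5.45 to 6.02 in PBS and 6.94 to 7.67 in CpG1826 tumors. Of 9 neutrophil markers 6 rose, led by S100a8 (2.13) and Cxcr2 (1.64), with scores of 5.18 to 5.41 and 5.88 to 6.39. The part of neutrophils in the results on the B7 genes was not tested. With the keratinocyte score as a covariate, a fit that extrapolates because the scores of the groups do not overlap, Cd80 passed (2.03, limma adjusted p = 0.0056) while Cd274 (2.07, limma adjusted p = 0.139) and Icosl (-0.53, limma adjusted p = 0.267) did not. Of 10 markers of colon epithelium, the labelled origin of the tumor line, 2 rose and 0 fell, and the score was 5.50 to 5.69 in PBS and 5.57 to 5.88 in CpG1826 tumors; levels of single probes do not show whether these genes were expressed. Cdh1 rose by 0.63 and Epcam by 0.32 on the log2 scale, the latter call kept only without PBS mouse 26 or CpG1826 mouse 183 (limma adjusted p from 0.0283 to 0.126). Fibroblast markers (7 measured, 0 called by limma, 0 higher and 2 lower at an unadjusted p under 0.05) had a median of -0.17 (Dcn 0.09, Col1a1 -0.28), and of 7 endothelial markers 1, Tek, fell (-0.34), a call kept only without PBS mouse 29 or 592 (limma adjusted p from 0.0390 to 0.117).

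Of 23 further checkpoint and B7-related genes, 2 rose and 1 fell, against 4.66% of all genes called in either direction, with a median log2 fold change of -0.03. Cd200, whose product restrains myeloid cells through Cd200r1, rose 1.93-fold (1.69 to 2.20, limma adjusted p = 3.55e-05), from 6.34 ± 0.16 to 7.29 ± 0.13 (SD, n = 5 per group), and its groups did not overlap. Cd200r1 itself differed by 0.29 ± 0.12 (SE) without passing. Pvr, a ligand of Tigit, Cd226 and Cd96, rose 1.51-fold (1.35 to 1.69, limma adjusted p = 0.000308), whereas the 3 receptors did not pass (-0.19, -0.21 and -0.30), and neither did another ligand of Tigit, Nectin2 (0.28, limma adjusted p = 0.0728). Sirpa, the macrophage receptor for the Cd47 signal, fell, with a level 1.31-fold lower (1.14 to 1.49); removing any of PBS mice 29, 482 and 592 and CpG1826 mice 50, 58 and 189 ended the call (limma adjusted p between 0.0119 and 0.0705).

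The remaining genes of this list did not pass. Btla, an inhibitory receptor of lymphocytes, differed by 0.26 ± 0.08 (SE; limma adjusted p = 0.0775) with no overlap of the groups, and its ligand Tnfrsf14 by 0.05. Cd47 (0.24), the galectin gene Lgals9 (0.26), its receptor Havcr2 or TIM-3 (-0.20) and the inhibitory receptors Lag3 (0.10) and Cd160 (-0.11) stayed short of the threshold. So did the B7 relatives Vsir (0.07), Vtcn1 (-0.14) and Ildr2 (-0.09), and the butyrophilin genes Btn1a1 (-0.05), Btn2a2 (-0.03), Btnl1 (0.13), Btnl2 (-0.12) and Btnl9 (-0.08).

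In the relay that carries CD28 and PD-1 signals inside T cells, 3 of 24 measured genes (27 were listed) rose and 1 fell, with a median log2 fold change of 0.05. Over all genes, 3.56% were called higher and 1.10% lower. Batf, an AP-1 family transcription factor, rose 2.01-fold (1.54 to 2.62), Malt1, a protease of the complex that links antigen receptors to NF-κB, 1.97-fold (1.65 to 2.36), and Vav1, an exchange factor below CD28, 1.54-fold (1.22 to 1.93). Nfatc2, a transcription factor that acts on calcium signals, was 1.36-fold lower (1.23 to 1.51). Malt1 and Vav1 also act in myeloid cells. The Vav1 call held only without PBS mouse 592 or CpG1826 mouse 50 or 189 (limma adjusted p from 0.0165 to 0.0833). The phosphatases Ptpn6 (0.04) and Ptpn11 (0.06), which PD-1 recruits, did not pass, nor did Zap70 (-0.09), the kinase of the T cell receptor, or Il2 (-0.01), a gene that CD28 signals induce.

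Of 24 measured regulators of PD-L1 (28 were listed), 4 rose and 1 fell, with a median of 0.12, against 3.56% and 1.10% of all genes. At an unadjusted p under 0.05 (limma), 9 were higher and 1 lower, against 15.6% of all genes in either direction. Zfp36, which destabilizes messenger RNAs, rose 1.94-fold (1.73 to 2.17), Stat2 and Stat3, transducers of interferon and cytokine signals, by 0.50 and 0.40, and Hif1a, the hypoxia factor, by 0.44 on the log2 scale. Mapk14, the p38 kinase, fell by 0.28, a call kept only without PBS mouse 26 or CpG1826 mouse 58 or 595 (limma adjusted p from 0.0247 to 0.0703); it was named after its value was seen, as was Fcgr1 above. Cmtm6 and Cmtm4, which keep PD-L1 at the cell surface, differed by 0.11 and 0.09, and Irf1, the factor through which interferon-γ acts on Cd274, by 0.11 ± 0.09 (SE; limma adjusted p = 0.612). In a list of the interferon-γ pathway, 13 of 14 genes were measured, with receptors, kinases and feedback inhibitors. The list also held Ifnar1, Ifnar2 and Tyk2, which serve type I interferon. By limma 2 rose and 0 fell, against 3.56% and 1.10% of all genes, at a median of 0.13. At an unadjusted p under 0.05 the counts were 5 and 0, with Ifnar2 (0.22) among the 5. The called genes were Socs3, a feedback inhibitor (2.52-fold, 2.25 to 2.83), and Jak2 (1.56-fold, 1.35 to 1.81). Ifng (-0.03), Ifngr1 (0.04), Jak1 (0.13) and Socs1 (0.09) did not pass. Nor did Ifngr2, the other receptor chain (0.30, limma adjusted p = 0.0635), although its groups did not overlap. Ifngr2 and Ptpn2 (0.25) were among the 5 at an unadjusted p under 0.05. Irf1 stands in both lists.

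Of 28 measured genes nearest to the members, 2 rose and 1 fell, again beside 4.66% of all genes called. In the RefSeq gene order of GRCm38.p6, Cd274 and Pdcd1lg2 follow each other among the measured genes, as do Cd28, Ctla4 and Icos. The genes before the Cd274 pair, Rln1 and Plgrkt, differed by 0.03 and 0.07, and those after it, Ric1 and Ermp1, by 0.19 and -0.31. Ermp1 fell (limma adjusted p = 0.0297; 0.0211 to 0.0844 with 1 mouse left out, past the threshold only without 1 of PBS mice 29 and 482 and CpG1826 mice 58 and 595). Beside Icosl, Aire, Dnmt3l, Gatd3a and Pwp2 lay between -0.22 and 0.00, and beside Cd80, Popdc2, Pla1a, Timmdc1 and Poglut1 between -0.03 and 0.10, with 0 of these 8 genes called by limma and 1, Pwp2 (-0.15), at an unadjusted p under 0.05. Beside Cd86, Stfa3, a cysteine protease inhibitor gene, rose 4.76-fold (2.82 to 8.04), while Casr (-0.08), Ildr1 (-0.12) and Slc15a2 (0.23) did not pass. After Icos, Nrp2, a semaphorin receptor gene, rose by 0.30 (limma adjusted p = 0.0235; 0.0148 to 0.0696 with 1 mouse left out, past the threshold only without 1 of PBS mice 26, 29 and 592 and CpG1826 mice 50 and 189), while Pard3b (-0.10) and, before Cd28, Abi2 (0.07) and Raph1 (0.15) did not pass. The genes around Pdcd1 (Gal3st2c, Neu4, Fam174a and St8sia4) and around Cd276 (Tbc1d21, Insyn1, Nptn and Rec114) did not pass.

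Genes whose differences among mice of one group were most like those of a ligand were sought among 9968 or 9969 other genes at or above the median level, by the Pearson correlation over 10 arrays after subtracting each group's mean. These are the highest of many values over few arrays and are given as a description. For Cd274 they were Ubd, a ubiquitin-like protein gene (r = 0.961), H2-M3, a class Ib MHC gene (0.943), and Bcl6, a transcriptional repressor (0.939), and without PBS mouse 661 the values were 0.937, 0.895 and 0.883. Ubd and Bcl6 also rose with CpG1826 (0.67 and 0.70), and H2-M3 did not pass (0.22). For Pdcd1lg2 they were the granzyme genes Gzmf (0.960) and Gzmd (0.939) and the T cell adaptor Sh2d2a (0.941), with 0.832, 0.758 and 0.873 without that mouse. None of these 3 passed the limma test between groups (1.01, 0.99 and 0.03, adjusted p = 0.162, 0.307 and 0.943). For Cd80 they were Havcr2 (0.979), Ddx56 (0.966) and Coq6 (0.959), and for Cd86 Cyfip2 (0.979), B4galt1 (0.976) and Fcgr4 (0.971). Fcgr4, an activating antibody receptor, rose (0.65), a call kept only without 1 of PBS mice 29 and 592 and CpG1826 mice 50 and 189 (limma adjusted p from 0.0245 to 0.107). For Icosl, with its small spread, the values were lower: Bloc1s4 (0.893), Zfand1 (0.871) and Epb41l5 (0.843).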

How the data were processed

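Expression was measured on arrays with total RNA labelled with biotin by an Affymetrix whole-transcriptome kit, per the labels' protocols. The deposited table holds log2 values for 35512 probes and 10 arrays, which the authors had normalized, judging by array medians of 6.47 to 6.53 (range of values 2.03 to 14.70, from which the base of the logarithm was also taken). R 2.7.1 and limma are named in the submitters' processing notes. How background, probe summary and normalization were handled was not given in the sources used here. Array normalization removes a change common to most genes, and dim probes can understate a fold change.

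Of the probes 21789 had exactly 1 gene symbol in the platform annotation, 1621 had several and 12102 none. Of several probes of a gene, the one with the highest mean was used (999 of 19938 genes had several). The tests used lmFit and eBayes from limma 3.58.1 under R 4.3.3 (two-sided, Benjamini-Hochberg over 19938 genes, threshold 0.05). Pairs were compared by exact permutation over the 10 arrays. The number of arrays limits the precision. In simulated data for this comparison with 19938 genes, 75 of 100 genes changed by 0.5 and 100 of 100 changed by 1 were recovered, with 8 unchanged genes among 183 calls. The simulated noise was independent from gene to gene, and fewer genes were changed than the 930 called here. In the real arrays some differences among mice were shared by many genes, so these counts need not hold there.

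The members, pairs and gene lists were chosen with earlier results of these data known. Named were all members, all B7 relatives, the nearest 2 measured genes on either side, the 3 genes most like each of 5 ligands, up to 4 called genes per pathway list and up to 2 per marker list (where none was called, the 2 brightest); other examples were picked after seeing their values. The mouse number of each array was read as 1 animal, no number occurs in both groups, and no batch was given. The alternatives were quantile normalization on top, centring on array medians, dropping dim genes (under the median, or under the lower quartile), a prior with trend and robust fit, weights per array, averaged probes, an adjusted p under 0.01, treat with a 1.5-fold minimum, a keratinocyte covariate and leaving out each mouse. The marker lists hold T cell, regulatory T cell, NK cell, B cell, dendritic cell, plasmacytoid dendritic cell, macrophage, neutrophil, keratinocyte, endothelial, fibroblast and colon epithelium genes.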

Additional observations from a re-analysis of the deposited data

Results flagged for a closer look

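Within groups of 5, a value was singled out when its gap to the nearest other tumor was more than 0.71 of the group's whole range (Dixon's 95% criterion). Chance singles out about 1 in 20 groups, and here 9 of 264 were singled out, 5 of them in PBS mouse 661. The family member among them was Icos, 7.08 in PBS mouse 661 against 7.95 to 8.10 in the other PBS tumors. The same mouse was lowest for the T cell marker score (6.78 against 7.25 to 7.33), Cd3g (7.86 against 8.73 to 8.99), Cd8a (7.76 against 8.44 to 8.63) and Vav1 (8.52 against 8.89 to 9.0). Cd3g and Cd8a are part of that score, and pairs and other scores also hold genes tested alone. The 264 groups are therefore not independent, and the counts above are not of separate events. CpG1826 mouse 183 was highest for Cd200 (7.51 against 7.20 to 7.28). PBS mouse 26 was highest for Ccr7 (7.51 against 6.68 to 6.92) and Ildr1 (6.40 against 6.07 to 6.17), and PBS mouse 29 was lowest for Slc15a2 (3.93 against 4.42 to 4.60).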

How the results depend on the processing

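With treat at a 1.5-fold minimum, 0 members and 0 ligands were called higher and 0 lower; with the keratinocyte covariate 1 was higher (Cd80) and 0 lower; at an adjusted p under 0.01, 1 was higher (Cd274). Leaving out 1 mouse gave 1 to 3 members (and ligands) called higher, 1 lower and 0 receptors. The signs of Cd276 (-0.18), Cd28 (0.21), Sirpa (0.15), Csf1r (0.27), Krt5 (-0.42), Epcam (-0.31) and Stfa3 (-1.27) reversed with the covariate, Icos (-0.02, against up to 0.32 without other mice) without PBS mouse 661 and Cd80 minus Cd86 (-0.04) with the mean of both probes; the cause was not tested. Krt5 is itself one of the genes averaged in the keratinocyte score, so its fit with that covariate is circular and its reversal has no reading. After a further quantile normalization, Pdcd1lg2 minus Pdcd1 (0.67) and Icosl minus Icos (-0.70) passed. Over the fits that leave out 1 mouse, changes were 1.15 to 1.27 for Cd274 minus Pdcd1, 0.53 to 0.84 for Pdcd1lg2 minus Pdcd1, 0.61 to 0.76 for Cd80 minus Cd28, 0.51 to 0.67 for Cd86 minus Cd28, 0.16 to 0.30 for Cd80 minus Ctla4, 0.09 to 0.22 for Cd86 minus Ctla4, -0.86 to -0.52 for Icosl minus Icos, 0.38 to 0.65 for Cd274 minus Pdcd1lg2, 0.02 to 0.16 for Cd80 minus Cd86 and 0.66 to 0.86 for Cd274 minus Cd80. Without PBS mouse 661 and CpG1826 mouse 50 together, Cd80 minus Ctla4 (0.23) and Icosl minus Icos (-0.67) passed and Cd274 minus Cd80 (0.72) did not (exact permutation adjusted p = 0.0857), where 4 against 4 arrays have fewer permutations.

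Counts of higher and lower genes in the pathway lists were recomputed by alternatives chosen after the data were seen. Among B7 relatives they became 1 higher without genes below the median level, 4 higher with array weights, 0 and 0 with treat, 0 lower with the covariate, at 0.01 or without both mice, and 2 to 3 higher and 0 to 1 lower without 1 mouse. In the CD28 relay, 0 and 0 passed treat and 0 were lower with the covariate, with 2 to 3 higher and 1 to 2 lower without 1 mouse. For PD-L1 regulators the counts were 1 and 0 with treat, 0 and 0 with the covariate, 2 and 0 at 0.01, 0 lower without both mice, and 4 to 5 higher and 0 to 1 lower without 1 mouse. In the interferon-γ pathway list 1 was higher with treat and 2 to 3 without 1 mouse. No paired analysis was possible because the groups share no mouse number. Signal over background was not used here, so a dim gene that did not pass may have changed.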
